A study of Mus musculus with 3 samples.

Results

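The Schlafen genes are a mouse gene family named for the German word for sleep, and 7 of them were described: Slfn1 (ENSMUSG00000078763), Slfn2 (ENSMUSG00000072620), Slfn3 (ENSMUSG00000018986), Slfn4 (ENSMUSG00000000204), Slfn5 (ENSMUSG00000054404), Slfn8 (ENSMUSG00000035208) and Slfn9 (ENSMUSG00000069793). They were chosen by name, with earlier results in which Slfn4 led a ratio between neutrophil libraries already known, so their ratios are a description. They are 7 of the 32285 genes listed, and they gave 103165 of the 198550695 transcript tags (UMIs) counted in cells. By member, cells held 41985 UMIs of Slfn2, 26311 of Slfn4, 15413 of Slfn1, 13011 of Slfn5, 4117 of Slfn8, 1341 of Slfn9 and 987 of Slfn3. A UMI of Slfn2 was found in 54.6% of cells and one of Slfn3 in 2.79%.

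The cells came from mouse non-small cell lung cancer and were counted by droplet sequencing of transcript 3′ ends. There was 1 library in each of 3 groups, labelled PD-L1, AI-Exo and PBS. According to its title, the study used exosomes that block autophagy to relieve tolerance of the tumour, while the labels give no strain, age, dose, time, cell sort or number of animals, and do not spell out the group names. With 1 library per group, no difference has a replicate check, no test was made and "higher" or "lower" is a statement of size. Brackets hold 95% exact intervals, which cover counting error only.

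Schlafen proteins share a core domain that binds and, in some members, cuts RNA, and many of the genes are induced by type I interferon, a signal that immune cells receive through a receptor feeding into JAK and STAT proteins. In mice, the short members Slfn1 and Slfn2 are known from T cell growth, where Slfn2 is needed for naive T cells to stay quiescent. Slfn3 and Slfn4 are of intermediate length, and Slfn4 is known from myeloid cells. Slfn5, Slfn8 and Slfn9 are long members that carry a helicase-like part. In the chromosome 11 annotation (RefSeq, GRCm38.p6) the order is Slfn5, Slfn9, Slfn8, Slfn2, Slfn1, Slfn4, Slfn3 and then Slfn14.

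The 250 bases before the start of 5 members are printed because the members fall into sets by the letters they hold (RefSeq, GRCm38.p6, gene strand). Capitals mark ACTTCCTGG in Slfn4 and Slfn1, the overlapping TTTCACTTCCTGG in Slfn2, GAAAAAGAAA in Slfn5 and TTTCGTTTTC in Slfn9.
Slfn4, chr11:83174936-83175185, plus strand: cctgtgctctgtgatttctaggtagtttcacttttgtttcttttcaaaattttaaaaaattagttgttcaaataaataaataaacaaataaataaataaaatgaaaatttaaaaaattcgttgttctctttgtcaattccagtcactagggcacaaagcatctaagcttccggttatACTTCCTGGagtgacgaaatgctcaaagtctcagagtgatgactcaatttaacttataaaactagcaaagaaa
Slfn1, chr11:83116570-83116819, plus strand: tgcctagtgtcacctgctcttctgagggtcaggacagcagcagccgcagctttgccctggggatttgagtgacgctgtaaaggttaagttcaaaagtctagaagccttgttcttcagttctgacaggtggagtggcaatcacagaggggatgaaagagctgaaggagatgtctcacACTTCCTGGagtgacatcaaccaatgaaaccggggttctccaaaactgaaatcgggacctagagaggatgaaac
Slfn2, chr11:83064862-83065111, plus strand: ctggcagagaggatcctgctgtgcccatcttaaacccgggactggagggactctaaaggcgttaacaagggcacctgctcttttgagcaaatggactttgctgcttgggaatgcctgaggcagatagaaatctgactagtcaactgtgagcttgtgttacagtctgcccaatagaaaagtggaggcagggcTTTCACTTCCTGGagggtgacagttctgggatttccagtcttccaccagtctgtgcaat
Slfn5, chr11:82951852-82952101, plus strand: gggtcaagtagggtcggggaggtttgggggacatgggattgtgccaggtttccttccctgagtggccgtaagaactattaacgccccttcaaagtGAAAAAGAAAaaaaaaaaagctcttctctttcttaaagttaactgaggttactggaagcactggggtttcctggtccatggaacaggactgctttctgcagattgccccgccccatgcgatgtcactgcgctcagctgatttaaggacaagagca
Slfn9, chr11:82991831-82992080, minus strand: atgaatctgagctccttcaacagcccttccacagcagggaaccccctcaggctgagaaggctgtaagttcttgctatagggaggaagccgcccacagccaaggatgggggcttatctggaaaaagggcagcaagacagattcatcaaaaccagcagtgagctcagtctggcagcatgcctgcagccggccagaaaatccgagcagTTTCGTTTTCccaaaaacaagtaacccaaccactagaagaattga

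Searched on both strands, the core of the interferon-stimulated response element, GAAA and GAAA with 2 bases of any kind between them, was found in 2.98% of 32851 such windows. It was present before Slfn5, from 155 to 146 bases before the start, before Slfn8, and before Slfn9, from 45 to 36 bases before the start. It was not in the windows of Slfn1, Slfn2, Slfn3 or Slfn4. The composite ETS and IRF element, GGAA and GAAA with 2 bases between them, was found in 2.30% of windows and, among the members, before Slfn2, where it overlaps ACTTCCTGG. TTCNNNGAA, the gamma-activated site, was found in 7.02% of windows and before no member. ACTTCCTGG, chosen after reading these windows, was found in 0.700% of all windows and before Slfn1, Slfn2, Slfn3 and Slfn4. Slfn1 and Slfn4 held it at the head of their longest shared run, the 15 bases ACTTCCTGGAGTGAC, which occurred in 2 of the 32851 windows, those of these genes. A match of letters is a description and not a site.

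Slfn1, Slfn4 and Slfn5 share no 31-base stretch with another member in the last 500 bases of their transcripts, where reads of this kind fall. For Slfn2 the share was 3.19%. For Slfn3, 33.8% of such stretches also occur in another member, for Slfn8 25.0% and for Slfn9 15.3%. The closest member was Slfn4 for Slfn3, with 30.7% of its stretches, Slfn9 for Slfn8 and Slfn8 for Slfn9. The values of Slfn3, Slfn8 and Slfn9 are therefore uncertain. In Slfn4 the stretches shared with Slfn3 lie outside its last 500 bases, and how far Slfn4 reads add to Slfn3 was not tested. Slfn5os, a neighbour of Slfn5, held 40 UMIs in the PD-L1 library, 22 in AI-Exo and 33 in PBS, and Slfn14 held 6, 6 and 7.

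The libraries held 65997942 UMIs in PD-L1, 76512500 in AI-Exo and 68386729 in PBS, with 9697, 10457 and 9359 cells and medians of 3948, 4425 and 4380 UMIs per cell. A marker gate put 73.9% of cells into a class by the share of the class's markers detected. Against the tissue label, lung epithelium was gated in only 2 cells, both in PBS, and cells with Rhox5, Hmga2 and keratin 8 in 5 PD-L1, 8 AI-Exo and 9 PBS cells, too few to compare. Between 49 and 59 cell barcodes per library were also found in another library. Levels are UMIs of a gene per 1000000 UMIs of a class (CPM), so levels of different genes compare captured transcripts and not lengths. A ratio is log2 of CPM plus 10 in one library over CPM plus 10 in another, which shrinks the ratios of low genes, and it was called at 1.5-fold among genes with a mean of at least 10 CPM.

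**Figure D1:**
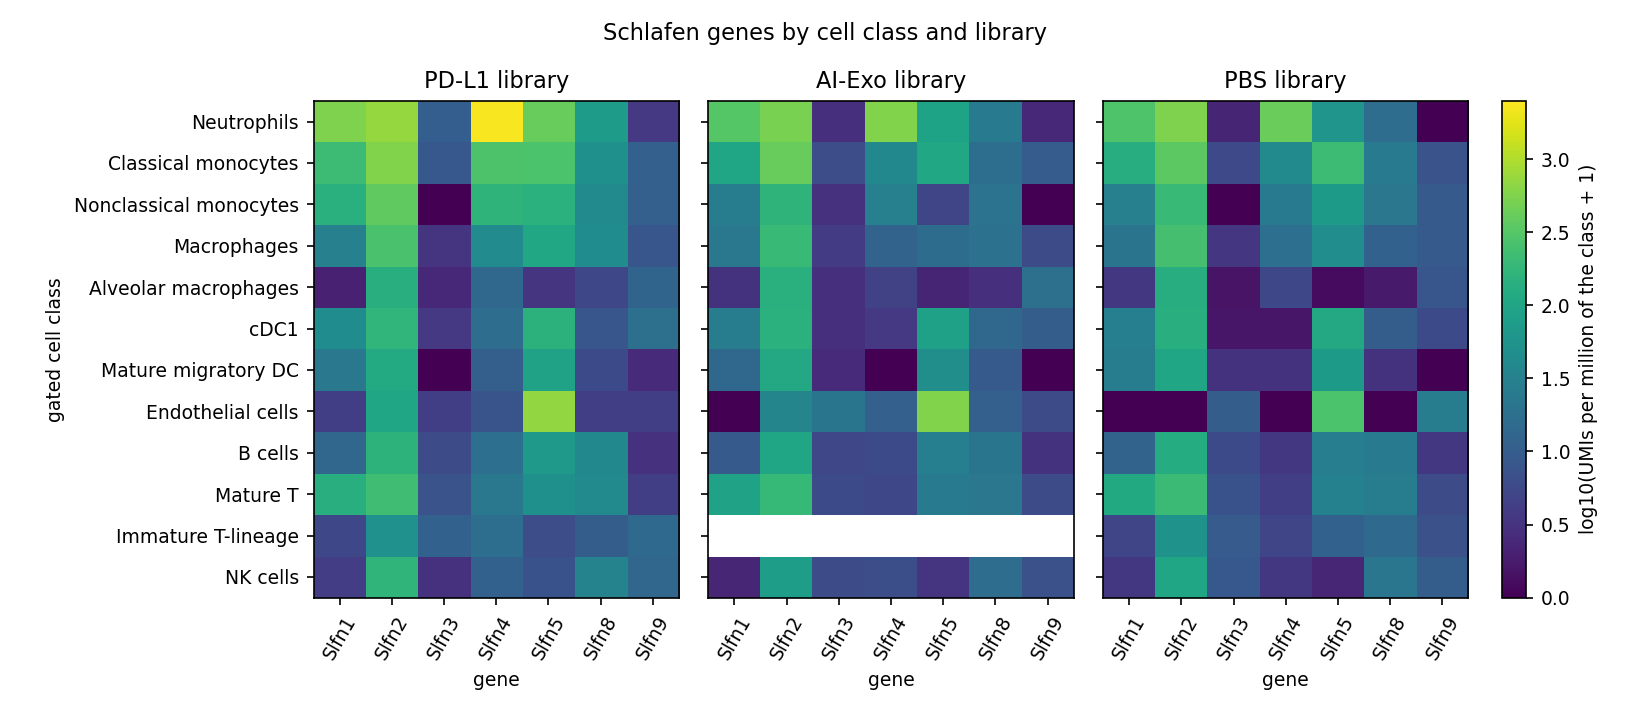
Colour gives log10 of CPM plus 1 for each Schlafen gene (columns) in each gated class (rows), in the PD-L1, AI-Exo and PBS libraries. Slfn4 is brightest in PD-L1 neutrophils, at 2306.9 CPM, Slfn5 is brightest in PD-L1 endothelial cells, at 712.1 CPM, and the AI-Exo library had no immature T-lineage cells.

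Among classes of at least 50 cells, Slfn4 was highest in neutrophils in each library. It stood at 2306.9 CPM [2264.7 to 2349.7] in 1607 PD-L1 neutrophils, at 571.1 CPM [546.9 to 596.1] in 1108 AI-Exo neutrophils and at 418.5 CPM [396.1 to 441.8] in 1139 PBS neutrophils. The next class, classical monocytes, had 280.9, 37.5 and 40.9 CPM in PD-L1, AI-Exo and PBS. In T cells and B cells Slfn4 reached 22.0 and 16.6 CPM in PD-L1. Free RNA, read from barcodes of at most 100 UMIs, could account for at most 11.8 and 12.7 CPM of those levels. In PD-L1 neutrophils it could account for at most 14.7 CPM.

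Slfn2, the member found in most cells, was measured in every class compared between libraries. In PD-L1 it stood at 733.5 CPM in neutrophils, 565.2 CPM in classical monocytes, 230.0 CPM in mature T cells and 157.5 CPM in B cells. Its lowest level among the 12 classes of 50 cells or more was 51.9 CPM, in immature T-lineage cells, gated by genes of antigen receptor rearrangement such as Rag1 and Ptcra. Slfn1 was high in the same order in myeloid cells, at 546.7 CPM in PD-L1 neutrophils and 215.7 CPM in classical monocytes. Mature T cells had 133.6, 91.0 and 116.0 CPM of Slfn1 in PD-L1, AI-Exo and PBS, against 4.42 CPM in PD-L1 and 4.09 CPM in PBS immature T-lineage cells. In PD-L1 the Slfn1 levels of nonclassical monocytes (142.9 CPM) and mature T cells (133.6 CPM) overlapped in their intervals.

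Endothelial cells held the most Slfn5 per UMI in each library, but passed 50 cells in PD-L1 only. In PD-L1 they stood at 712.1 CPM [620.7 to 813.2] over 74 cells, followed by neutrophils at 407.2 CPM and classical monocytes at 269.3 CPM. In AI-Exo 42 endothelial cells held 568.3 CPM, and among classes of at least 50 cells classical monocytes and neutrophils came first with overlapping intervals, at 104.7 and 91.7 CPM. In PBS 18 endothelial cells held 269.0 CPM [181.5 to 384.0], and classical monocytes came next at 212.6 CPM. Slfn8 stayed at or below 73.9 CPM in every class of at least 50 cells, with its highest level in PD-L1 neutrophils. Slfn3 was at 10.3 CPM in PD-L1 immature T-lineage cells and at 9.52 CPM in PD-L1 neutrophils. In the latter Slfn4, whose transcripts hold part of the end of Slfn3, was at 2306.9 CPM.

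Summed over the 7 members, neutrophils held 4080.4 CPM in PD-L1, 1516.3 CPM in AI-Exo and 1327.6 CPM in PBS. Slfn4 gave 56.5% of that sum in PD-L1 and 37.7% in AI-Exo, while Slfn2 was the largest member in PBS, at 41.3%.

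The comparison of PD-L1 with PBS asks how the labelled PD-L1 group differs from the PBS control. In neutrophils 4 of 5 measured members were higher and 0 lower, beside 4.22% of genes higher by that size and 6.19% lower. Slfn4 in neutrophils is what drew attention to the family, so the count is a description and nothing is read from it. Slfn5 gave the largest neutrophil ratio, with 407.2 CPM in PD-L1 and 59.1 CPM in PBS (log2 2.59, 6.88-fold [5.92 to 8.05]). Slfn4 followed with a log2 ratio of 2.43 and a fold of 5.51 [5.21 to 5.84]. Slfn8 had 73.9 CPM in PD-L1 and 15.3 CPM in PBS (log2 1.73), and Slfn1 had 546.7 and 285.5 CPM (log2 0.91). Slfn2 was at 733.5 and 547.9 CPM, a log2 ratio of 0.41, below the size of a call. The median gene in neutrophils stood at -0.14. Within the neutrophil gates, the summed markers of classical monocytes gave 1062.9 CPM in PD-L1 and 958.4 CPM in PBS, and those of nonclassical monocytes 936.9 and 781.3 CPM. Erythroid and platelet markers gave 126.0 CPM in PD-L1 and 66.2 CPM in PBS, and basophil and mast cell markers 161.5 and 277.2 CPM. The other 14 lists lay between 3.85 and 155.8 CPM in PD-L1 and between 0.959 and 170.7 CPM in PBS. Their part in the ratios was not tested. In the neutrophils that were neither granule-rich nor high in Ccl3 and Cxcl3, where 4.51% of genes were higher, the Slfn5 ratio was 3.06 and the Slfn4 ratio 2.89.

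Classical monocytes had 4 of 5 members higher, beside 10.6% of genes. Slfn4 was at 280.9 CPM in PD-L1 and 40.9 CPM in PBS (log2 2.51, 6.87-fold [5.97 to 7.91]). Slfn8 (0.82), Slfn2 (0.70) and Slfn1 (0.67) passed the size, and Slfn5 did not, at 269.3 and 212.6 CPM (log2 0.33). Within the gate Chil3, one of its markers, was at 467.2, 902.5 and 4021.9 CPM in PD-L1, AI-Exo and PBS and Fn1 at 269.8, 360.4 and 1353.8 CPM, so the gated monocytes differed in these genes between libraries, and the part of that in the Schlafen ratios was not tested. With both markers left out of the gate the Slfn4 ratio in classical monocytes was 2.50 and the count stayed at 4. With no limit on the runner-up class, and with clusters in place of the gate, Slfn1 and Slfn2 no longer passed and 2 members remained.

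In nonclassical monocytes 5 of 5 measured members were higher, beside 16.3% of genes, over 75 PD-L1 and 88 PBS cells. Slfn4 there was at 163.3 and 24.3 CPM (log2 2.34), from 48 and 9 UMIs, and Slfn1 at 142.9 and 29.6 CPM (log2 1.95), from 42 and 11 UMIs. Slfn8 there rests on 12 and 8 UMIs, and its fold of 1.89 has an interval of 0.712 to 5.34. Macrophages had 3 of 5 members higher, beside 7.33% of genes: Slfn8 at 43.4 CPM in PD-L1 and 10.5 CPM in PBS, Slfn5 at 104.3 and 45.4 CPM, and Slfn4 at 42.2 and 16.2 CPM. These small classes depend on the gate: with clusters in its place Slfn2 and Slfn5 in nonclassical monocytes and Slfn8 in macrophages no longer passed, and without Chil3 and Fn1 neither did Slfn2 and Slfn8 in nonclassical monocytes and Slfn4 in macrophages. Elsewhere Slfn5 was higher in B cells, at 68.6 CPM in PD-L1 and 27.6 CPM in PBS (log2 1.06), where 0.689% of genes were, and Slfn2 in NK cells, at 168.7 and 101.8 CPM (log2 0.68), where 3.93% were. In dendritic cells of the cDC1 type Slfn9 was at 17.2 and 4.81 CPM (log2 0.88), from 19 and 8 UMIs, where 4.29% of genes were higher.

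In mature T cells Slfn4 alone of 5 members passed, beside 0.635% of genes, at 22.0 CPM in PD-L1 and 3.34 CPM in PBS. Free RNA could give at most 11.8 and 1.48 CPM of these. The same held in immature T-lineage cells, where 1.69% of genes were higher and Slfn4 was at 15.9 and 4.09 CPM, with at most 5.94 and 0.865 CPM from free RNA.

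Over 10 classes, 21 of 40 measured pairs of a member and a class were higher in PD-L1 and 0 were lower, beside 4.92% and 4.70% of all pairs of a gene and a class. Pairs share cells, so they are not independent. They include Slfn4 in neutrophils, which drew attention to the family, so this count too is a description. Slfn4 was higher in 6 of 6 measured classes, with ratios of 0.88 to 2.51. Slfn2 was higher in 3 of 10, with ratios of -0.08 to 0.86.

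**Figure D2:**
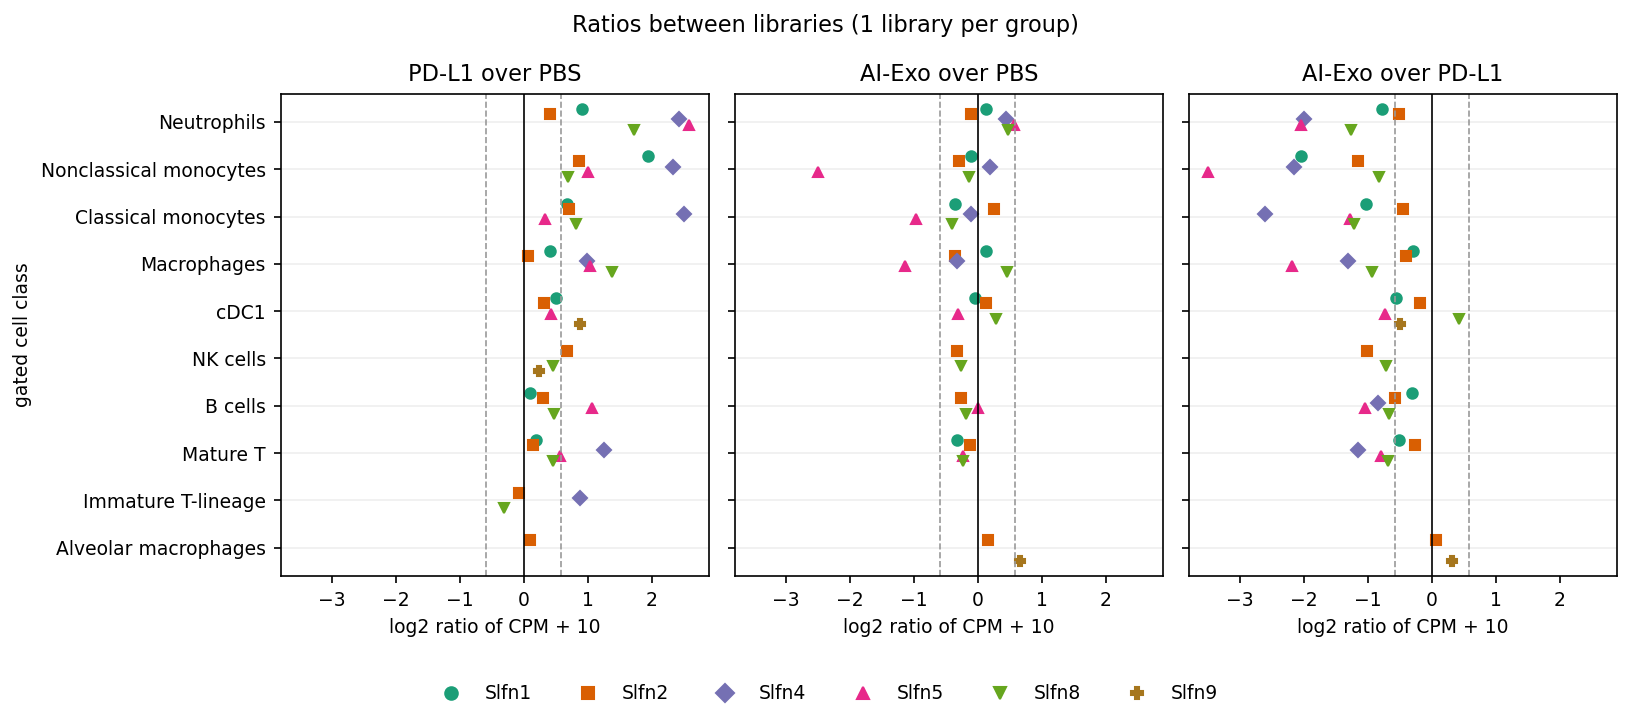
Points give the log2 ratio of CPM plus 10 for each Schlafen gene with a mean of at least 10 CPM in each class (rows), for PD-L1 over PBS, AI-Exo over PBS and AI-Exo over PD-L1. Dashed lines mark 1.5-fold. For PD-L1 over PBS, 4 of 5 points lie right of the line in neutrophils, all but Slfn2, and 4 of 5 in classical monocytes, all but Slfn5, and Slfn5 in nonclassical monocytes lies far left in both AI-Exo panels.

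AI-Exo against PBS was a different picture, with 1 of 35 measured pairs higher, beside 4.78% of all pairs, and 3 lower, beside 4.20%. The 3 lower pairs were all Slfn5. It was at 104.7 CPM in AI-Exo and 212.6 CPM in PBS classical monocytes (log2 -0.96), where 4.30% of genes were lower. In macrophages it was at 15.1 and 45.4 CPM (log2 -1.14), where 7.58% of genes were lower, and in nonclassical monocytes at 4.15 and 70.1 CPM (log2 -2.50), where 13.5% were. The last rests on 2 UMIs in AI-Exo and 26 in PBS, a fold of 0.0593 [0.00682 to 0.237]. Within the nonclassical gate the summed macrophage markers gave 1381.3, 448.7 and 2439.1 CPM in PD-L1, AI-Exo and PBS. Classical monocyte markers gave 534.2, 355.2 and 849.0 CPM. Some lists ran the other way, such as endothelial markers, at 166.7, 249.3 and 102.4 CPM. The part of these other markers in the ratios of this class was not tested. The pair that was higher was Slfn9 in alveolar macrophages, at 16.8 and 7.02 CPM (log2 0.66), where 2.20% of genes were higher. By division markers, 93 of 534 AI-Exo and 22 of 364 PBS cells of that class were dividing. Slfn9 was at 46.2 and 34.8 CPM in the dividing cells and at 7.44 and 4.03 CPM in the others. The part of dividing cells in the ratio was not tested. With no limit on the runner-up class Slfn5 in macrophages and Slfn9 in alveolar macrophages no longer passed, and with clusters Slfn9 did not.

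In neutrophils 0 of 5 members passed the size in either direction for AI-Exo over PBS, beside 3.47% of genes higher and 3.36% lower, with Slfn5 nearest at 91.7 and 59.1 CPM (log2 0.56). Split by marker, the neutrophils that were neither granule-rich nor high in Ccl3 and Cxcl3 had Slfn5 at 102.5 CPM in AI-Exo and 44.1 CPM in PBS (log2 1.06), Slfn8 at 28.6 and 11.4 CPM (log2 0.85) and Slfn4 at 513.8 and 322.3 CPM (log2 0.66), where 5.07% of genes were higher. Within the PBS library, the neutrophils high in Ccl3 and Cxcl3 stood above these others, with Slfn4 at 563.3 and 322.3 CPM (log2 0.79) and Slfn5 at 98.8 and 44.1 CPM (log2 1.01), where 10.3% of genes were higher. The same contrast did not pass the size in the other libraries for Slfn4, with log2 ratios of -0.50 in PD-L1 and 0.10 in AI-Exo. Between AI-Exo and PBS, Slfn5 was at 94.1 and 98.8 CPM in neutrophils high in Ccl3 and Cxcl3. Granule-rich neutrophils had it at 42.5 and 60.8 CPM.

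AI-Exo was also set against PD-L1. These comparisons share libraries, so their ratios are not independent. The PD-L1 level of Slfn4 in neutrophils enters here again, so the counts are a description. Of 42 measured pairs, 0 were higher, beside 4.73% of all pairs, and 26 were lower, beside 4.50%. In neutrophils Slfn5 was at 91.7 CPM in AI-Exo and 407.2 CPM in PD-L1 (log2 -2.04) and Slfn4 at 571.1 and 2306.9 CPM (log2 -2.00), where 2.37% of genes were lower. Classical monocytes had Slfn4 at 37.5 CPM in AI-Exo and 280.9 CPM in PD-L1 (log2 -2.61), where 5.89% of genes were lower, and nonclassical monocytes had 5 of 5 members lower, beside 12.7% of genes. Slfn5 was lower in 8 of 8 measured classes, with ratios of -3.50 to -0.74, Slfn4 in 6 of 6 and Slfn8 in 7 of 8. Slfn2 was lower in 2 of 10.

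In lymphocytes the Slfn5 ratios were smaller than in neutrophils. In B cells it was at 28.0 CPM in AI-Exo and 68.6 CPM in PD-L1 (log2 -1.05), where 0.749% of genes were lower, and in mature T cells at 24.1 and 49.3 CPM (log2 -0.80), where 1.73% were. NK cells had Slfn2 at 78.8 CPM in AI-Exo and 168.7 CPM in PD-L1 (log2 -1.01), where 2.36% of genes were lower.

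Thinning each cell to 1000 UMIs, which left out 29, 27 and 30 shallower neutrophils in PD-L1, AI-Exo and PBS, gave the share of neutrophils with Slfn4. It was 81.2% [79.2 to 83.1] in PD-L1, 33.1% [30.3 to 36.0] in AI-Exo and 25.2% [22.6 to 27.8] in PBS. Unthinned shares were 93.8%, 58.2% and 42.8%. In B cells, where the level of Slfn4 was low, the thinned shares were 2.04%, 0.427% and 0.0810%, with medians of 3549, 3775 and 3173 UMIs per B cell and 2690, 2743 and 2423 per neutrophil. At least 5 UMIs of Slfn4 were found in 16.7% of thinned PD-L1 neutrophils, in 0.925% of AI-Exo and in 0.992% of PBS neutrophils. Slfn5 was seen in a smaller share, with 0 UMIs in 69.4% of PD-L1, 92.0% of AI-Exo and 95.6% of PBS neutrophils. Classical monocytes held Slfn4 in 25.3%, 3.86% and 3.30% of thinned cells of PD-L1, AI-Exo and PBS, and in 57.4%, 16.2% and 16.5% unthinned. At least 2 members were found together in 70.2%, 27.8% and 21.9% of PD-L1, AI-Exo and PBS neutrophils, and none in 5.64%, 30.5% and 36.7%.

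**Figure D3:**
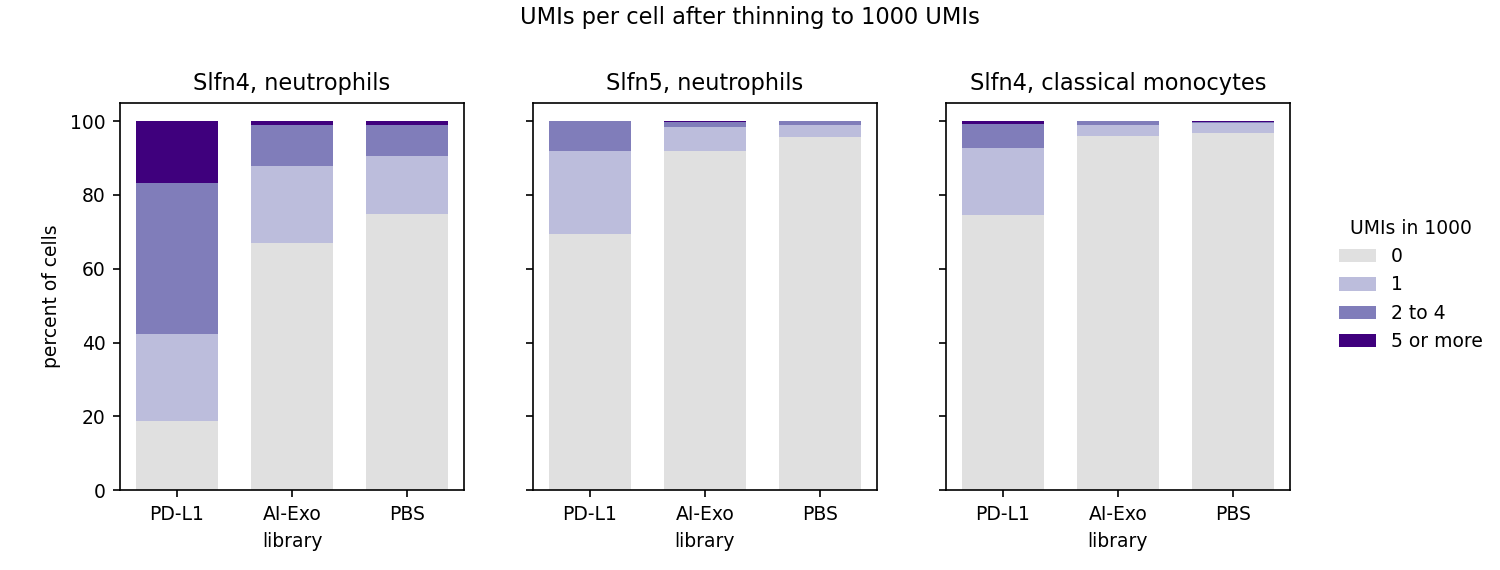
Bars divide thinned cells of each library by the UMIs of a gene they held, in percent of cells, for Slfn4 and Slfn5 in neutrophils and Slfn4 in classical monocytes. Neutrophils without Slfn4 were 18.8% in PD-L1, 66.9% in AI-Exo and 74.8% in PBS.

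The type I interferon response list, like the other lists, was chosen with earlier results of these data known, so its counts are a description. Its measured members were higher in PD-L1 than in PBS in 21 of 21 cases in neutrophils, with a median of 1.88 against -0.14 for all genes, and in 23 of 23 in classical monocytes, with a median of 1.56. By the same size 4.22% and 10.6% of all genes were higher in these classes. Ifit3, an interferon-induced RNA-binding protein, was at 711.6 CPM in PD-L1 and 30.4 CPM in PBS neutrophils (log2 4.16). The type II list had 12 of 15 members higher in neutrophils and 13 of 15 in classical monocytes, and the receptor and signalling list 4 of 11 and 6 of 12. Irf7, a transcription factor of the interferon loop, was at 237.4 and 44.8 CPM (log2 2.18), and the kinase Jak1 at 512.5 and 770.1 CPM (log2 -0.58). For AI-Exo over PBS, 8 of 20 type I list members were higher in neutrophils, beside 3.47% of all genes, with a median of 0.56, and 7 of 22 in classical monocytes, beside 6.69%, with a median of 0.42. Ifnb1, the interferon beta ligand, was at 108.6 CPM in PD-L1, 101.7 CPM in AI-Exo and 21.7 CPM in PBS classical monocytes. For AI-Exo over PD-L1 in these monocytes the log2 ratio was -0.09 for Ifnb1 and -2.61 for Slfn4. A link between the 2 genes was not tested.

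Neutrophils were grouped by their UMIs of that list, which holds no Schlafen gene, as a description within and between libraries. Cells with 6 or more list UMIs in 1000 were 80.9% of PD-L1, 24.6% of AI-Exo and 10.7% of PBS neutrophils. Within each library the mean of Slfn4 climbed with the list UMIs, though intervals of neighbouring groups overlapped between 0 and 1 to 2 list UMIs in PD-L1, and up to 3 to 5 in AI-Exo. From the lowest group to the highest it was 1.17, 1.29, 2.12 and 2.64 UMIs per 1000 in PD-L1, 0.323, 0.421, 0.512 and 0.842 in AI-Exo, and 0.205, 0.359, 0.573 and 1.47 in PBS. In each group PD-L1 stood above the other libraries, also among cells with 0 list UMIs, where 24 PD-L1 cells gave 1.17 [0.775 to 1.69], 158 AI-Exo cells 0.323 [0.240 to 0.424] and 366 PBS cells 0.205 [0.161 to 0.257]. In the group of 6 or more, which has no upper limit, AI-Exo (0.842 [0.735 to 0.960]) was below PBS (1.47 [1.26 to 1.71]). Slfn5 was at 0.480, 0.226 and 0.319 in PD-L1, AI-Exo and PBS neutrophils of 6 or more list UMIs, and at 0, 0.0570 and 0.00546 at 0 list UMIs. Slfn2 was at 0.792, 0.609 and 0.479 in that group and 0.417, 0.323 and 0.574 among cells with 0 list UMIs, in PD-L1, AI-Exo and PBS. In classical monocytes Slfn4 stood higher in PD-L1 in the groups all libraries filled, at 0.450, 0.0353 and 0.0223 for 3 to 5 list UMIs and at 0.350, 0.0617 and 0.168 for 6 or more.

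**Figure D4:**
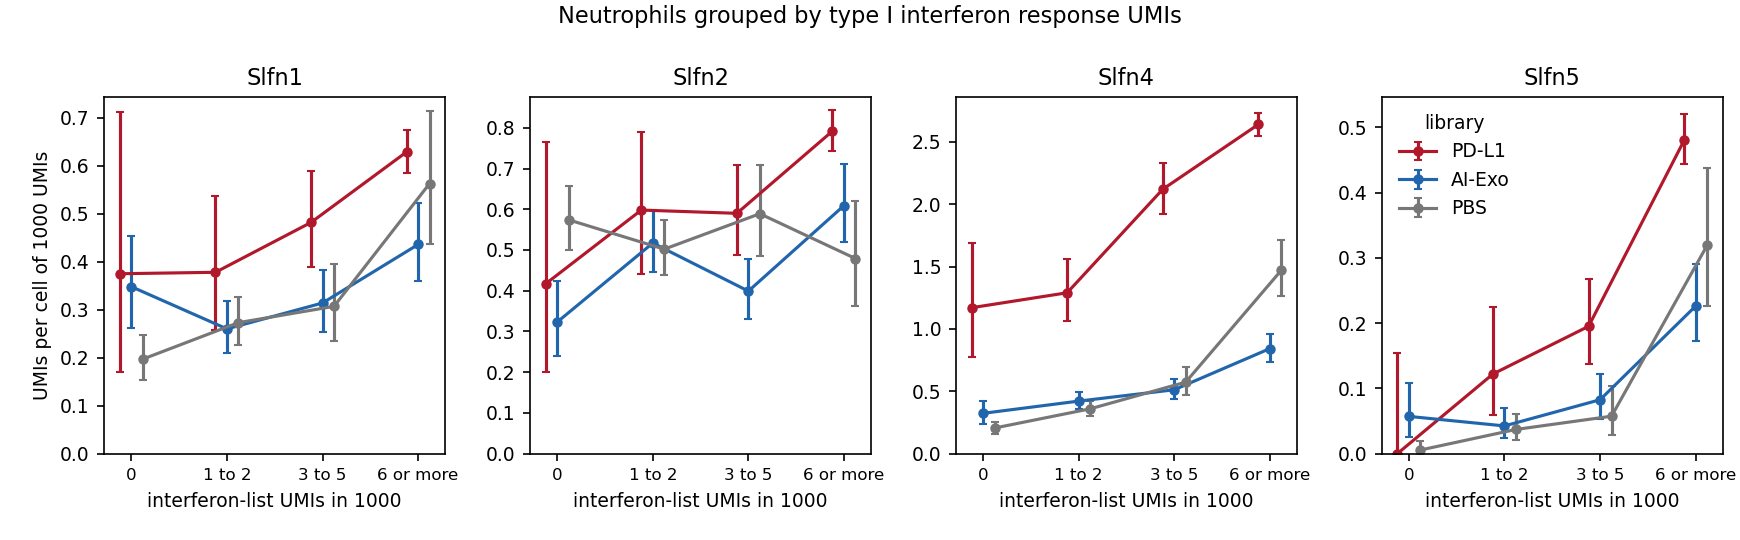
Points give UMIs of Slfn1, Slfn2, Slfn4 and Slfn5 per neutrophil of 1000 UMIs, by the number of type I interferon list UMIs, with 95% counting intervals. Slfn4 reaches 2.64 in PD-L1, 0.842 in AI-Exo and 1.47 in PBS at 6 or more list UMIs.

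Within a library, subsets were compared in each of the 3 libraries, which gives the contrast a repeat, although libraries differ in treatment. An exact sign-flip test over 3 libraries cannot go below p = 0.25. Subsets needed 20 cells, fewer than the 50 asked of a class, and dividing alveolar macrophages numbered 36 in PD-L1, 93 in AI-Exo and 22 in PBS. Slfn9 was higher in dividing alveolar macrophages than in those not dividing in 3 of 3 libraries. It was at 47.4 and 6.49 CPM in PD-L1 (28 and 27 UMIs), at 46.2 and 7.44 CPM in AI-Exo (79 and 40 UMIs) and at 34.8 and 4.03 CPM in PBS (13 and 14 UMIs). The folds were 7.30 [4.15 to 12.9], 6.21 [4.20 to 9.33] and 8.64 [3.74 to 19.8], where 14.5%, 10.1% and 17.2% of genes were higher. Slfn8, whose transcripts hold part of the end of Slfn9, held 4, 2 and 1 UMIs in the same dividing cells. Dividing cells were called by 4 of 8 division markers and were deeper, with medians of 17519, 17759 and 18136.5 UMIs in dividing and 11434, 11837 and 10096 UMIs in other alveolar macrophages, and the part of depth in the subset was not tested.

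In mature T cells Slfn1, Slfn2, Slfn5 and Slfn8 were lower in dividing cells, while Slfn9 and, outside PD-L1, Slfn3 were too low to be called. Slfn1 was lower in dividing than in other mature T cells in 3 of 3 libraries, at 61.4 and 141.0 CPM in PD-L1, 25.1 and 107.2 CPM in AI-Exo and 50.5 and 121.2 CPM in PBS, where 18.2%, 10.9% and 17.8% of genes were lower. Slfn5 was also lower in 3 of 3, with 0 UMIs in 54 dividing PD-L1 cells, 6 UMIs in AI-Exo and 4 in PBS. Slfn8 was lower in 3 of 3, at 19.2 and 42.6 CPM in PD-L1, 6.98 and 24.8 CPM in AI-Exo and 11.1 and 28.0 CPM in PBS. Slfn2 was lower in 2 of 3, with log2 ratios of -0.64 in PD-L1, -0.62 in AI-Exo and -0.50 in PBS. Slfn9 was at 5.12 and 3.05 CPM in PD-L1, 8.84 and 4.10 CPM in AI-Exo and 11.1 and 4.60 CPM in PBS, in dividing and other mature T cells. That is below the minimum mean of 10 CPM in each library, so no call could be made. Slfn3 was at 24.3 and 4.63 CPM in PD-L1 (log2 1.23), from 19 and 35 UMIs. It passed the size there, where 20.4% of genes were higher. In AI-Exo it was at 7.91 and 4.10 CPM and in PBS at 11.1 and 5.84 CPM, below the minimum mean of 10 CPM. Immature T-lineage cells had Slfn2 at 26.5 CPM in dividing and 124.2 CPM in other cells in PD-L1, and at 24.4 and 85.8 CPM in PBS, where 26.4% and 18.8% of genes were lower. Slfn9 there was at 15.1 and 8.51 CPM in PD-L1, from 76 and 15 UMIs. In PBS it was at 9.50 and 2.43 CPM, from 23 and 6 UMIs, and neither was called. Dividing immature T-lineage cells were also deeper, with medians of 21700 and 2906 UMIs in PD-L1 and 15422 and 3258 UMIs in PBS. In mature T cells medians were 12924.5 and 4226 UMIs in PD-L1, 11709.5 and 4319.5 in AI-Exo and 14382.5 and 4037 in PBS. The part of depth was not tested.

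**Figure D5:**
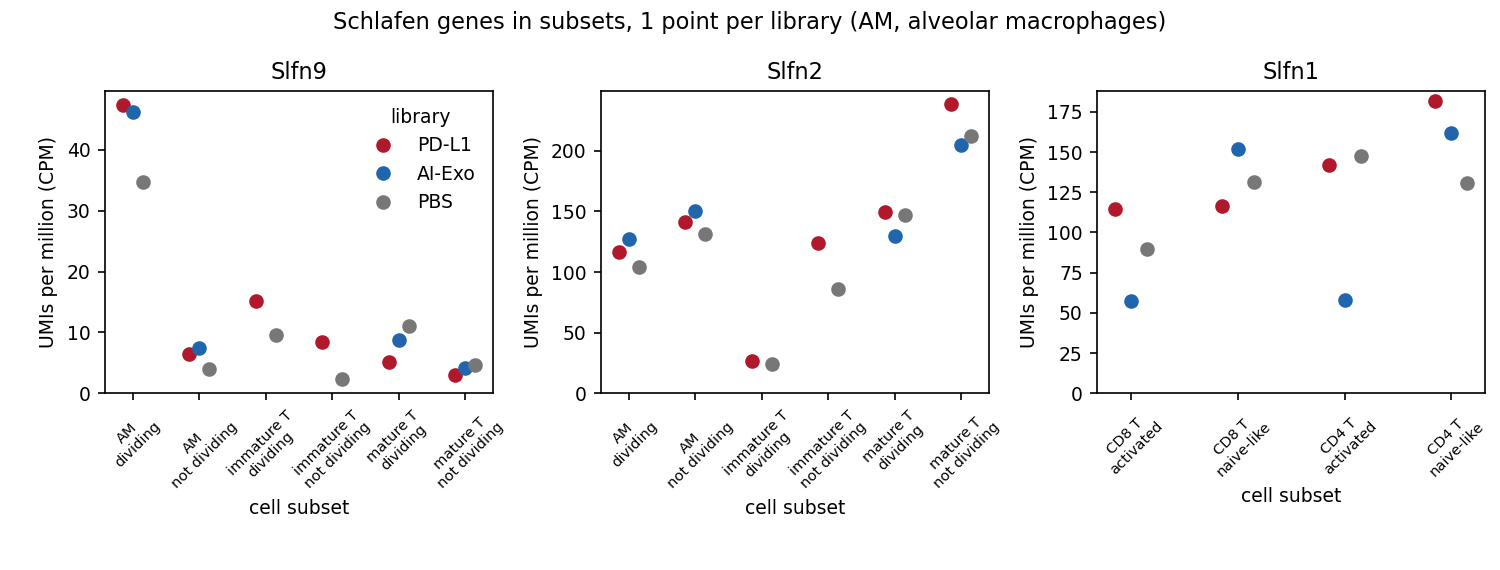
Points are 1 library each and give CPM of Slfn9 and Slfn2 in dividing and other alveolar macrophages (AM), immature T and mature T cells, and of Slfn1 in activated and naive-like T cells. Slfn9 in dividing alveolar macrophages lies between 34.8 and 47.4 CPM, above 7.44 CPM in all others of that class, and Slfn1 in activated T cells is lowest in AI-Exo.

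Slfn1 was also compared between activated and naive-like T cells, a contrast whose difference between libraries was not tested. In CD4 T cells it was at 142.2 and 181.6 CPM in PD-L1, 57.9 and 162.0 CPM in AI-Exo and 147.6 and 130.9 CPM in PBS, for activated and naive-like cells. Only the AI-Exo contrast passed the size (log2 -1.34, where 10.4% of genes were lower, beside 13% in PD-L1 and 10.4% in PBS). In CD8 T cells the values were 114.5 and 116.2 CPM in PD-L1, 57.3 and 151.7 CPM in AI-Exo (log2 -1.26, where 13.8% of genes were lower) and 89.8 and 131.4 CPM in PBS, with 11.9% of genes lower in PD-L1 and 11.5% in PBS. Slfn5 was lower in activated cells of AI-Exo and PBS, at 19.3 and 67.8 CPM and at 18.6 and 45.9 CPM in CD4 T cells, and at 7.36 and 45.2 CPM and at 13.8 and 27.8 CPM in CD8 T cells. In PD-L1 its ratios, -0.44 in CD4 and -0.37 in CD8 T cells, did not pass. Between libraries, activated CD4 T cells had Slfn1 at 57.9 CPM in AI-Exo and 147.6 CPM in PBS (log2 -1.22, where 7.51% of genes were lower). The ratio of AI-Exo over PD-L1 there was -1.17, where 7.80% of genes were lower. Naive-like CD4 T cells held 162.0 CPM in AI-Exo and 130.9 CPM in PBS (log2 0.29). The activated gate did not leave out dividing cells, in which Slfn1 was lower. Dividing cells were 54 of 1651 mature T cells in PD-L1, 154 of 1966 in AI-Exo and 36 of 1871 in PBS. Their part in the Slfn1 ratios of activated cells was not tested.

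Over 34 units of a class and a library, drawn from 14 classes, the genes with the profile most like each member were found by Pearson's r among 6916 genes, as a description, since units share libraries. Slfn5 was most like Stat2 (0.85), Irf9 (0.82) and Xaf1 (0.81), and Slfn1 and Slfn2 were both most like Oas3 (0.85 each). Slfn4 was most like Csf3r (0.92), a marker of the neutrophil gate, and Slfn9 like Ssr1 (0.70), Ncbp2 (0.70) and Incenp (0.69), a subunit of the complex that guides chromosome separation. Slfn8 was most like Slc28a2 (0.77) and Slfn3 like Snhg3 (0.70). Slfn1 and Slfn2 were at 0.88 to each other, and Slfn1 and Slfn9 at -0.21.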

How the data were processed

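Counts of UMIs per gene and barcode were deposited by the authors, as whole numbers that were not normalized. Per the file headers, Cell Ranger 7.1.0 wrote them, but 3.0.2 is the version in the submitters' processing notes. Neither source states a build or annotation. Barcodes with at least 500 UMIs, 200 genes and at most 20% mitochondrial UMIs were kept as cells. Scrublet's automatic threshold marked 0 or 1 cell per library and has not worked, so doublets stayed in, and leaving out cells with a score over 0.15 is an alternative. A cell took the class with the highest share of its markers detected, if at least 3 were detected and the runner-up had at most 0.5 of that share. CPM, ratios and exact Poisson, conditional and Clopper-Pearson intervals were computed with Python 3.11.15, numpy 2.4.6 and scipy 1.17.1. The scripts were tested on simulated data. Cells of 1 library are not replicates. Named genes were all 7 members, the 3 most like each, and, of each gene list, the highest, the lowest and the one with most UMIs at 50 CPM or more in neutrophils and monocytes. The members, lists and markers were chosen with earlier results of these data known. The contrasts between subsets within a library, the motif ACTTCCTGG and the monocyte gate without Chil3 and Fn1 were chosen after seeing the data. The closing section gives 13 alternatives, among them other gates, filters, pseudocounts and scalings.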

Additional observations from a re-analysis of the deposited data

Results flagged for a closer look

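Slfn5 in AI-Exo over PBS ran in opposite directions in a neutrophil subset and a monocyte class. Its log2 ratio was 1.06 in the neutrophils that were neither granule-rich nor high in Ccl3 and Cxcl3, and -2.50 in nonclassical monocytes, where AI-Exo held 2 UMIs. Over all neutrophils it was 0.56. Neutrophils high in Ccl3 and Cxcl3 held 94.1 CPM in AI-Exo and 98.8 CPM in PBS, and granule-rich ones 42.5 and 60.8 CPM. The nonclassical gates also differed in summed macrophage markers, at 448.7 CPM in AI-Exo and 2439.1 CPM in PBS. The difference between these groups of cells, and the part of such markers in it, was not tested.

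Free RNA, read from barcodes of at most 100 UMIs that no comparison uses, held more of 3 members in PD-L1 or AI-Exo than in PBS, beyond counting error. Slfn4 was at 879.0 CPM in PD-L1 and at 200.9 CPM in AI-Exo, against 139.3 CPM in PBS. Slfn1 was at 87.1 CPM in PD-L1, against 48.7 CPM in PBS, and Slfn5 at 86.6 CPM in PD-L1, against 44.9 CPM in PBS. With the upper bound of free RNA subtracted from each CPM, 47 of 51 called values still had a value. All 47 stayed past 1.5-fold. The rest fell below the minimum mean of 10 CPM, among them Slfn4 in mature T and immature T-lineage cells for PD-L1 over PBS. Pairs higher in that comparison went from 21 to 19, and pairs lower for AI-Exo over PD-L1 from 26 to 24.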

How the results depend on the processing

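No paired analysis was possible because each group is 1 library, which also leaves no replicate to leave out. Of 51 called values, those with a value under an alternative kept their direction under all 13. The counts reported for neutrophils, for classical monocytes and over all pairs that moved by more than 1.5 times were as follows. With no limit on the runner-up class, PD-L1 over PBS had 2 members higher in classical monocytes in place of 4, AI-Exo over PBS had 1 higher in neutrophils in place of 0 and 3 pairs higher in place of 1, and AI-Exo over PD-L1 had 1 pair higher in place of 0. With Leiden clusters in place of the gate, PD-L1 over PBS had 2 members higher in classical monocytes, and AI-Exo over PD-L1 had 43 of 64 measured pairs lower in place of 26 of 42, as the clusters give more classes. Among the 42 pairs measured in both, 29 were lower. A pseudocount of 50 CPM gave 2 members in classical monocytes, 13 pairs higher in place of 21 for PD-L1 over PBS, 0 pairs higher for AI-Exo over PBS and 16 pairs lower for AI-Exo over PD-L1. A pseudocount of 1 CPM gave 2 neutrophil members and 4 pairs higher for AI-Exo over PBS, and 1 pair higher for AI-Exo over PD-L1. Centring on the median gene gave 1 neutrophil member and 2 pairs higher for AI-Exo over PBS. Without Chil3 and Fn1 in the monocyte gate, an alternative chosen after seeing the data, AI-Exo over PBS had 2 pairs higher. The cause of these moves was not tested. Single pairs moved more often: of the called values, 43 of 50 stayed past 1.5-fold with no limit on the runner-up, 42 of 49 with clusters, 46 of 50 with the mean of single-cell CPM, 31 of 51 with a pseudocount of 50 CPM and 47 of 50 without Chil3 and Fn1. Under the other 8, all that still had a value stayed past it. These were 47 with free RNA subtracted, 49 without cells of a Scrublet score over 0.15, and 51 otherwise. Pairs that newly passed were 12 with a pseudocount of 1 CPM, 7 each with no limit, clusters and the single-cell mean, 3 without Chil3 and Fn1 and 2 with centring. Small classes limit the rest: nonclassical monocytes were 75 to 114 cells per library.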

Other observations

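Endothelial cells, too few in AI-Exo and PBS for a comparison, carried the family almost as a single gene. Slfn5 gave 218 of their Schlafen UMIs in PD-L1 (85.5%), 115 in AI-Exo (87.8%) and 30 in PBS (88.2%). A UMI of Slfn5 was found in 67.6% of 74 PD-L1, 71.4% of 42 AI-Exo and 61.1% of 18 PBS endothelial cells, before thinning. Slfn1 and Slfn4, which among classes of at least 50 cells were highest in neutrophils, held 1 and 2 UMIs in the PD-L1 endothelial cells. Slfn2, also highest in neutrophils, was at 101.3 CPM in them.

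In neutrophils of PD-L1 over PBS, 0 of 6 measured T cell quiescence genes were higher and 2 lower, and 0 of 6 heat shock genes were higher and 2 lower, where 4.22% of all genes were higher and 6.19% lower. For AI-Exo over PBS, 2 of 6 quiescence genes and 3 of 6 heat shock genes were lower, where 3.36% of all genes were. Klf2, a transcription factor of quiescent cells, was at 4310.5 CPM in PD-L1, 4364.2 CPM in AI-Exo and 8911.7 CPM in PBS neutrophils, with log2 ratios of -1.05 for PD-L1 and -1.03 for AI-Exo over PBS.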
